A study of Mus musculus with 12 samples.

Results

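The genes followed here encode the liver's 4 main aspartate and alanine aminotransferases (Got1, Got2, Gpt, Gpt2) and 6 enzymes that join glutamate to ammonia, ornithine and proline (Glud1, Oat, Prodh, Prodh2, Aldh4a1, Aldh18a1). They were chosen by gene symbol, and each of the 10 symbols had 1 row among the 56980 genes of the count matrix. Bulk RNA sequencing was done on whole livers of male ob/ob mice (strain B6.Cg-Lepob/J, genotype Lep-/-), which lack leptin and become obese. All mice were 8 weeks old at the start and 11 weeks old at harvest, and all ate freely. Per the labels, 6 mice received chow with 25% of energy as protein (standard protein diet, SPD) and 6 received chow with 5% (low protein diet, LPD), for 3 weeks. Every mouse of both diets carried the leptin mutation, and no lean group was analysed here. The sources used here do not name what replaced the protein energy.

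Aminotransferases pass the amino group of an amino acid to alpha-ketoglutarate, which becomes glutamate, and they use pyridoxal phosphate as cofactor. Glutamate dehydrogenase then releases the nitrogen as ammonia, and the liver makes urea from it, while the carbon skeletons can be burned or used for glucose or fat. Ornithine and proline are broken down to the same intermediate, pyrroline carboxylate, which is oxidised to glutamate, and the route from glutamate back to that intermediate needs an enzyme of its own, Aldh18a1.

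Library totals ranged from 19374676 to 23710930 counts. On principal component 1 of log2 CPM (47.1% of the variance over all tested genes) the SPD livers took scores from -32.1 to -24.7. The low protein livers split: replicates 2 and 5 scored 48.7 and 44.6, and the remaining 4 from 15.3 to 22.5. For LPD replicate 1 the title and library code name the low protein diet, but its treatment label and description name 25% protein. It was kept in LPD, and its score of 15.3 lay outside the SPD scores. A result is also given with this library grouped with SPD where that changes a call. The code of each library starts with SP1 or SP2 for the standard diet and with LP4 or LP5 for the other, without a stated meaning, so what the codes mark and the diet cannot be told apart. Liver markers were high in every library (8 hepatocyte genes summed to between 68890 and 93900 CPM), and 6 markers of muscle, fat and pancreas summed to at most 0.386 CPM. CPM is the usual depth-adjusted count, taken here relative to the TMM-scaled library total.

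Of the 10 mRNAs, 4 differed between the diets, and not all in the same direction. In LPD livers Gpt and Prodh rose, Got1 and Aldh18a1 fell, and Got2, Gpt2, Glud1, Oat, Prodh2 and Aldh4a1 did not pass the test (edgeR's quasi-likelihood test, adjusted p under 0.05 over 13768 tested genes). These 4 calls of 10 stand beside 39.9% of all tested genes called. The 2 higher calls stand beside 20.7% of genes called higher, and the 2 lower calls beside 19.2% called lower. The share of members called was thus near that of all genes. The median log2 fold change (LPD over SPD) of the 10 was 0.0044, against -0.00059 over all tested genes. All 10 passed the filter on low counts. The livers of both diets did not overlap for 1 member, Aldh18a1, beside 19.9% of all tested genes (10.2% with LPD above SPD and 9.73% with LPD below). In bulk tissue, fewer cells of a type and less RNA per cell cannot be told apart.

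**Figure D1:**
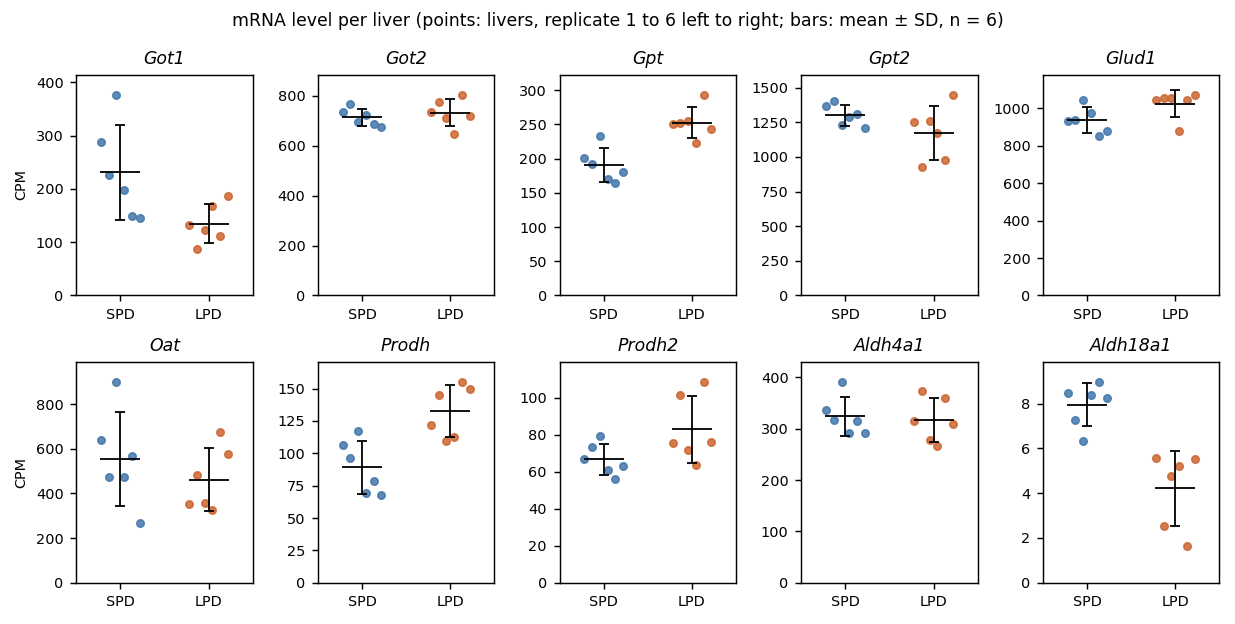
CPM of each member in every liver, on axes that start at 0, with the mean and SD of 6 livers per diet as bars. The 6 LPD livers lie below all SPD livers for Aldh18a1, and 5 of 6 lie above all SPD livers for Gpt.

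Compared per length of gene, the mitochondrial enzymes Gpt2, Got2, Glud1 and Oat had the most abundant messages and the proline-synthesis enzyme the scarcest. In SPD livers Gpt2 stood first at 358 ± 20.9 CPM per kb (mean ± SD, n = 6), followed by Got2 at 282 ± 13.5, Glud1 at 277 ± 20.2 and Oat at 257 ± 97.9 CPM per kb. Got1 (112 ± 43.2), Gpt (106 ± 13.8) and Aldh4a1 (95.7 ± 11.0 CPM per kb) formed a middle tier. Prodh (37.4 ± 8.61) and Prodh2 (35.9 ± 4.61) came next, and Aldh18a1 was last at 2.25 ± 0.274 CPM per kb. Neighbours in this order whose SPD ranges did not overlap were Gpt2 over Got2, Aldh4a1 over Prodh and Prodh2 over Aldh18a1, while all other neighbours overlapped. In LPD livers Gpt2 was again first (322 ± 53.4), but its range overlapped that of the next gene, Glud1 (302 ± 21.3 CPM per kb). Got1 moved from rank 5 to rank 7 (65.6 ± 17.9), below Gpt (141 ± 12.9) and Aldh4a1 (93.8 ± 12.7 CPM per kb). The LPD ranges of Gpt and Aldh4a1 did not overlap, nor did those of Prodh2 and Aldh18a1.

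**Figure D2:**
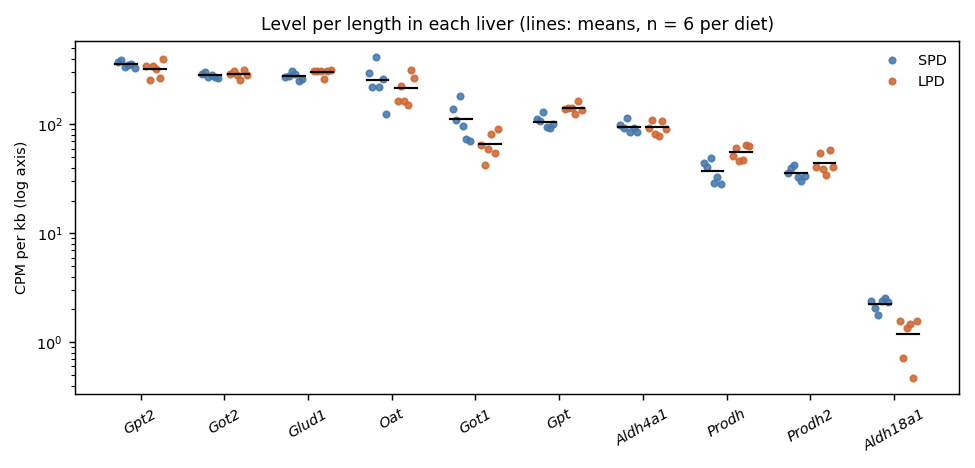
Level per length (CPM per kb, log axis) of the 10 genes in each liver, ordered by the SPD mean, with lines at the means of 6 livers. Gpt2 is highest at 358 CPM per kb in SPD and Aldh18a1 lowest at 2.25.

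Cytosolic and mitochondrial aspartate aminotransferase mRNAs did not move alike. Got1 (ENSMUSG00000025190, chromosome 19, 43499752 to 43524605, minus strand, GRCm38) encodes the cytosolic enzyme, which with Got2 and the malate dehydrogenases carries reducing equivalents into mitochondria. Its level ran from 146 CPM through a median of 213 to 377 CPM in SPD livers, and from 87.1 through 127.5 to 187 CPM in LPD livers. Of 6 LPD livers 4 lay below every SPD liver and none above the SPD median, and the upper LPD livers (replicates 4 and 6) overlapped SPD replicates 5 and 6. Got1 fell 1.71-fold on average (log2 fold change -0.78 ± 0.23 SE, adjusted p = 0.0127, edgeR). The call was lost without LPD replicates 2 and 5 (-0.60, adjusted p = 0.0630) and with LPD replicate 1 moved to SPD (-0.68, adjusted p = 0.05775). Among livers coded SP1 or LP4 (4 per diet) the value was -1.09 (adjusted p = 0.00365).

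Got2 (ENSMUSG00000031672, chromosome 8, 95864134 to 95888547, minus strand), the mitochondrial enzyme, was among the steadiest members. It ran from 674 through 709.7 to 767 CPM in SPD livers and from 648 through 728 to 804.5 CPM in LPD livers, so the diets overlapped widely. The difference was 0.038 ± 0.061 SE and did not pass (adjusted p = 0.657, edgeR). Got2 values were not whole numbers in 7 of 12 libraries, and the pseudogene Got2-ps1 held a mean of 1.41 counts per library.

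The balance between the 2 aspartate aminotransferase messages was also taken within each liver, where the scaling between libraries does not enter. The log2 ratio of Got1 to Got2 per length was -1.41 ± 0.51 in SPD livers and -2.19 ± 0.48 in LPD livers (mean ± SD, n = 6), that is, Got2 was 2.66 times as abundant as Got1 on SPD and 4.55 times on LPD. All 6 LPD livers lay below the SPD median, and 4 lay below every SPD liver. The difference of -0.77 passed an exact two-sided permutation test over all 924 labelings (p = 0.0216, adjusted p = 0.0271 over 5 ratios). It did not pass without LPD replicate 1 (adjusted p = 0.0541), without LPD replicate 2 (adjusted p = 0.05195), without LPD replicates 2 and 5 (-0.52, adjusted p = 0.114) or with LPD replicate 1 moved to SPD (adjusted p = 0.08365).

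Of the alanine aminotransferases, the cytosolic form rose. Gpt (ENSMUSG00000022546, chromosome 15, 76695716 to 76699686, plus strand) converts alanine to pyruvate in the cytosol. It ran from 165 through 186.5 to 233 CPM in SPD livers and from 223 through 251 to 294 CPM in LPD livers. Only LPD replicate 4 lay within the SPD range, just below SPD replicate 3, which was the highest SPD liver. The rise was 1.33-fold (0.41 ± 0.084 SE, adjusted p = 0.00131, edgeR) and was called under all 22 alternatives tried, with values from 0.30 to 0.48.

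Gpt2 (ENSMUSG00000031700, chromosome 8, 85492576 to 85527560, plus strand) encodes the mitochondrial form and is known as a target of ATF4, a transcription factor of the amino acid response. It ran from 1211 through 1298 to 1406 CPM in SPD livers, a narrow band, and from 926 through 1212 to 1449 CPM in LPD livers. LPD replicates 2 and 5 were far below the rest (926 and 978 CPM), whereas LPD replicate 6 was above every SPD liver. The difference of -0.15 ± 0.096 SE did not pass (adjusted p = 0.231, edgeR), and it was -0.019 without LPD replicates 2 and 5. Genes known to respond to ATF4 rose in 10 of 12 tested cases in the same livers, beside 20.7% of all tested genes called higher. Their median log2 fold change was 1.37, and none of the 12 was lower at an unadjusted p under 0.05 or by DESeq2. Without LPD replicate 4, 1 of them (Vldlr) was called lower. The list's remaining gene, Phgdh, was too low to be tested (0.472 ± 0.183 CPM in SPD and 0.213 ± 0.120 CPM in LPD livers).

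The log2 ratio of Gpt to Gpt2 went from -1.76 ± 0.21 in SPD livers to -1.18 ± 0.32 in LPD livers (mean ± SD, n = 6). Gpt2 was thus 3.38 times as abundant as Gpt per length on SPD and 2.26 times on LPD. Of 6 LPD livers 5 lay above every SPD liver, and the difference of 0.58 passed the exact permutation test (p = 0.00433, adjusted p = 0.0108). The smallest p that 924 labelings can give is 0.00216. Without LPD replicates 2 and 5 the difference was 0.38 (exact permutation test, adjusted p = 0.0317), 1.5 times smaller.

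**Figure D3:**
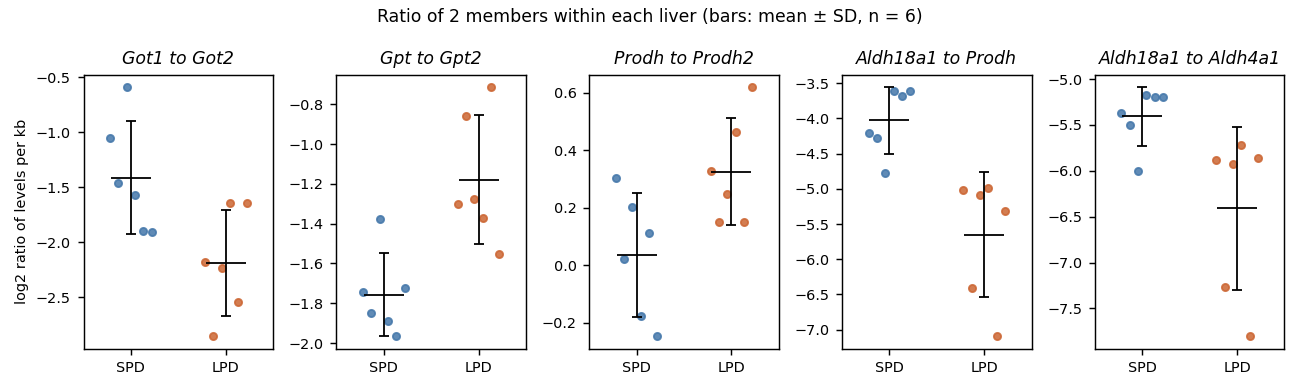
Log2 ratio of the levels per kb of 2 members within each liver, with the mean and SD of 6 livers per diet. LPD livers lie below all SPD livers for Aldh18a1 to Prodh, and 5 of 6 lie above all SPD livers for Gpt to Gpt2.

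Glutamate dehydrogenase and ornithine aminotransferase, which feed and drain the glutamate pool in mitochondria, did not pass. Glud1 (ENSMUSG00000021794, chromosome 14, 34310727 to 34345265, plus strand) ran from 854 through 935 to 1045 CPM in SPD livers and from 879 through 1049 to 1073 CPM in LPD livers. In LPD 5 of 6 livers lay between 1043 and 1073 CPM, and replicate 4 was alone at 879 CPM. The difference was 0.13 ± 0.067 SE (adjusted p = 0.141, edgeR), and without LPD replicate 4 it was 0.17 and called (adjusted p = 0.0384).

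Oat (ENSMUSG00000030934, chromosome 7, 132557478 to 132576398, minus strand) transfers the side-chain amino group of ornithine and is known as a pericentral liver gene. It spread more between livers of 1 diet than between diets, from 267 through 519.7 to 899 CPM in SPD and from 327 through 418 to 676 CPM in LPD. Its coefficient of variation was 38.1% in SPD and 30.7% in LPD, against medians of 6.57% and 7.73% over 2727 genes of at least 50 CPM. Got1 spread as widely in SPD (38.4%). The Oat difference was -0.26 ± 0.24 SE (adjusted p = 0.414, edgeR) and depended on which livers entered. It was -0.063 without SPD replicate 3, -0.17 without LPD replicate 4 and -0.12 with LPD replicate 1 moved to SPD. It was -0.40 without SPD replicate 6 or without LPD replicate 5 and -0.45 without LPD replicates 2 and 5, none of which passed. Among livers coded SP1 or LP4 it was -0.71 and called (adjusted p = 0.0212). The annotated Fgfr2 locus overlaps Oat on the same strand, with a mean of 587 counts per library against 10860 for Oat. Fgfr2 itself fell (-0.37, adjusted p = 0.0116, edgeR), and its part in the Oat values was not tested.

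In proline breakdown, the first enzyme rose and the last did not. Prodh (ENSMUSG00000003526, chromosome 16, 18060357 to 18090203, minus strand), proline dehydrogenase of the inner mitochondrial membrane, ran from 68.2 through 87.2 to 118 CPM in SPD livers and from 109.9 through 134 to 155 CPM in LPD livers. The highest SPD liver, replicate 3, lay above LPD replicates 3 and 4 and below the other 4. Prodh rose 1.48-fold (0.57 ± 0.14 SE, adjusted p = 0.00388, edgeR). Among livers coded SP1 or LP4 the value was 0.33 and did not pass (adjusted p = 0.116). Prodh overlaps Dgcr6 on the opposite strand, Dgcr6 fell (-0.29, adjusted p = 0.0376, edgeR), and the handling of strand in counting is not given in the sources used here.

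Prodh2 (ENSMUSG00000036892, chromosome 7, 30493622 to 30513402, plus strand), the related enzyme that oxidises hydroxyproline, ran from 56.2 through 64.9 to 79.3 CPM in SPD livers and from 63.5 through 75.7 to 108 CPM in LPD livers. The 2 livers above all SPD livers were LPD replicates 2 and 5, at 101.7 and 108 CPM. Its difference of 0.31 ± 0.12 SE narrowly missed the threshold (adjusted p = 0.0546, edgeR). DESeq2's Wald test called it (adjusted p = 0.04391), as did edgeR without any filter (0.04705) and edgeR with LPD replicate 4 (0.0183), LPD replicate 3 (0.0433) or SPD replicate 3 (0.0319) left out. Without LPD replicates 2 and 5 the value was 0.11 (adjusted p = 0.387).

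Aldh4a1 (ENSMUSG00000028737, chromosome 4, 139622866 to 139649690, plus strand) oxidises pyrroline carboxylate to glutamate and so completes the breakdown of both proline and ornithine. It ran from 291 through 316 to 391 CPM in SPD livers and from 265 through 313 to 373 CPM in LPD livers, and the diets overlapped over most of their range. The difference of -0.029 ± 0.093 SE did not pass (adjusted p = 0.832, edgeR). The log2 ratio of Prodh to Prodh2 went from 0.037 ± 0.21 in SPD to 0.33 ± 0.19 in LPD livers (mean ± SD, n = 6), with 3 LPD livers above every SPD liver. The difference of 0.29 passed the exact permutation test (p = 0.0368, adjusted p = 0.0368), but 9 of 17 alternatives did not pass, 6 of them leaving out 1 library (SPD replicate 2, 4 or 6, or LPD replicate 1, 4 or 6, adjusted p from 0.06277 to 0.07359).

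Aldh18a1, which makes pyrroline carboxylate from glutamate for proline and ornithine synthesis, showed the largest fold change of the 10 in the fit of all livers. Got1 exceeded it among livers coded SP1 or LP4 (-1.09 against -0.75), without LPD replicates 2 and 5 (-0.60 against -0.59) and without SPD replicate 5. The gene (ENSMUSG00000025007, chromosome 19, 40550257 to 40588463, minus strand) was the scarcest member, with 33 to 206 counts per library. It ran from 6.33 through 8.32 to 8.97 CPM in SPD livers and from 1.65 through 5.00 to 5.56 CPM in LPD livers, so all 6 LPD livers lay below all 6 SPD livers. It fell 1.87-fold (-0.91 ± 0.23 SE, adjusted p = 0.00541, edgeR). LPD replicates 5 and 2 were lowest at 1.65 and 2.51 CPM, and the other 4 lay between 4.77 and 5.56 CPM. Without those 2 livers the value was -0.59 and still called (adjusted p = 0.001338). Macrophage markers (10 genes) summed to 579 and 625 CPM in LPD replicates 5 and 2, against 818 to 1147 CPM in SPD. Stellate and fibroblast markers (8 genes) summed to 354 and 344 CPM, against 473 to 681 CPM in SPD. Over all LPD livers the sums reached 904 and 583 CPM. Single markers differed: in LPD replicates 2 and 5 Gpnmb (5.99 and 3.81 CPM) and Col1a1 (7.20 and 6.42 CPM) lay below every SPD liver. Reln (56.4 and 53.7 CPM) there lay within the SPD range, as did Timd4 in replicate 5 (10.6 CPM). Timd4 in replicate 2 lay marginally above the highest SPD liver (both 12.27 CPM when rounded). None of those markers was at 0, and their part in the Aldh18a1 result was not tested.

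Within each liver, the synthesis message was also set against those of proline breakdown. The log2 ratio of Aldh18a1 to Prodh was -4.03 ± 0.475 in SPD and -5.65 ± 0.89 in LPD livers (mean ± SD, n = 6). Prodh was thus 16.3 times as abundant as Aldh18a1 per length on SPD and 50.2 times on LPD. All LPD livers lay below all SPD livers, and the difference of -1.62 gave the smallest p the exact permutation test allows (p = 0.00216, adjusted p = 0.0108). Without LPD replicates 2 and 5 it was -1.07 (exact permutation test, adjusted p = 0.0317). Aldh18a1 and Prodh were each called in the same livers, in opposite directions, so this ratio is not separate support for those calls. The ratio of Aldh18a1 to Aldh4a1 differed by -1.002 (exact permutation test, p = 0.0108, adjusted p = 0.0180), but by -0.44 without LPD replicates 2 and 5 (adjusted p = 0.0595) and by -0.69 among livers coded SP1 or LP4 (adjusted p = 0.143).

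**Figure D4:**
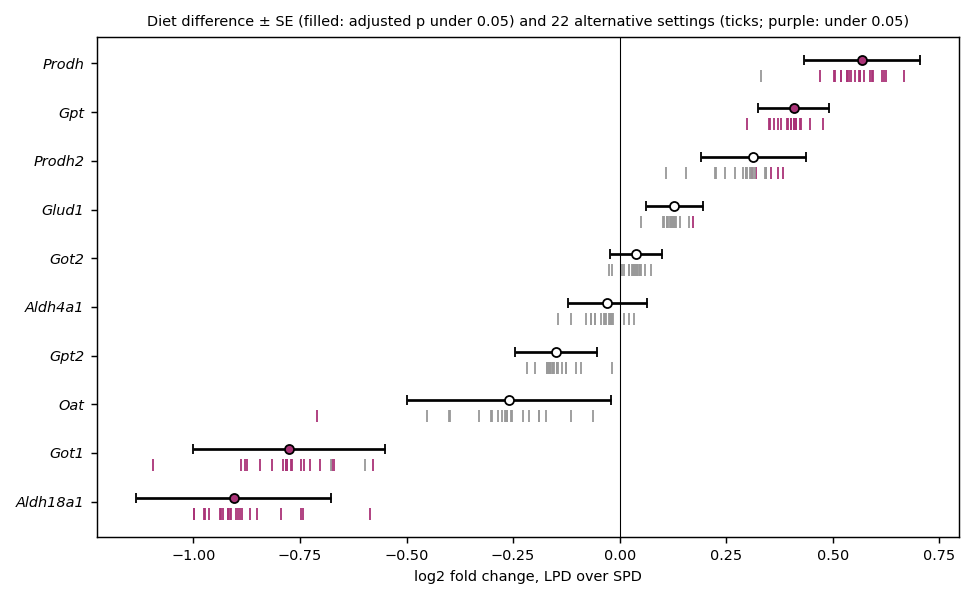
Log2 fold change (LPD over SPD) of each member with its SE as a bar, filled where the adjusted p was under 0.05, above ticks for 22 alternative settings (purple where under 0.05). Gpt and Aldh18a1 are called under every setting shown, and Got1 lost its call under 2 of them.

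The promoters of the 2 messages that fell and of Prodh, which rose, are shown because these are 3 of the 4 members called between diets. The 250 bases before the RefSeq start (GRCm38.p6) are given 5′ to 3′ on the gene's strand. Capitals mark matches, on either strand, to the C/EBP-ATF response element TGATGNAA, the CCAAT box, the GC box GGGCGG, the E-box CACGTG or the cAMP response element TGACGTCA. The windows lie at chr19:43524606-43524855 (Got1), chr19:40588464-40588713 (Aldh18a1) and chr16:18089191-18089440 (Prodh), all on the minus strand.
Got1: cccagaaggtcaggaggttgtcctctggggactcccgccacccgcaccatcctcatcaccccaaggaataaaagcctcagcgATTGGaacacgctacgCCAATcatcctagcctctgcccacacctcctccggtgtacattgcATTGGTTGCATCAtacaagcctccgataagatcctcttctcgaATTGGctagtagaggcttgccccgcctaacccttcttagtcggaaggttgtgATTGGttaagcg
Aldh18a1: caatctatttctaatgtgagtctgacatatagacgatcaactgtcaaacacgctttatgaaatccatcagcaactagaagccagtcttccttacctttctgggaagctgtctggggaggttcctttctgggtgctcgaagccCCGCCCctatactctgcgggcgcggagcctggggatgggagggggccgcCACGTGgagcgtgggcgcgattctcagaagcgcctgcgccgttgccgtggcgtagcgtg
Prodh: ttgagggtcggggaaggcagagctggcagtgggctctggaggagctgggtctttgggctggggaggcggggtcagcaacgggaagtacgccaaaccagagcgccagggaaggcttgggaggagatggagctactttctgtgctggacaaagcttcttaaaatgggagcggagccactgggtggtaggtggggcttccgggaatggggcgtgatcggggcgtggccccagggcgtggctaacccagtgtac

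Got1 held 1 match to the C/EBP-ATF response element, TTGCATCA, at bases 102 to 95 before the start, directly next to 1 of its 5 CCAAT boxes. That element was found in 3.45% of 32851 RefSeq promoter windows of this length, and in no other of the 9 members with an entry, Gpt2 included. CCAAT boxes were found in 33.8% of windows, and among the members also in Aldh4a1, Oat and Prodh2. Aldh18a1 held 1 GC box (in 32.7% of windows) and 1 E-box (in 6.02%), and Prodh held none of the 5 motifs, of which the cAMP response element (in 1.55%) matched no member. Gpt has no entry in the table. A match is a description of letters and not a bound site. GENCODE places the start of Prodh farther upstream than RefSeq, at 18090203 on chromosome 16. Among the members, Got1 and Aldh18a1 are both on chromosome 19, Gpt2 and Got2 both on chromosome 8, and Oat and Prodh2 both on chromosome 7.

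The livers of 1 diet differed from each other in a pattern shared by several members. SPD replicate 3 was the highest SPD liver for 7 members (Got1, Gpt, Glud1, Oat, Prodh, Prodh2 and Aldh4a1) and the lowest for Aldh18a1. SPD replicate 6 was the lowest for 5 members (Got1, Got2, Gpt2, Oat and Prodh). Among LPD livers, replicate 5 was the highest for Got2, Gpt, Oat, Prodh and Prodh2 and the lowest for Aldh18a1, and replicate 4 was the lowest for 6 members. Got1, Oat and Prodh thus shared their highest and their lowest SPD liver.

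**Figure D5:**
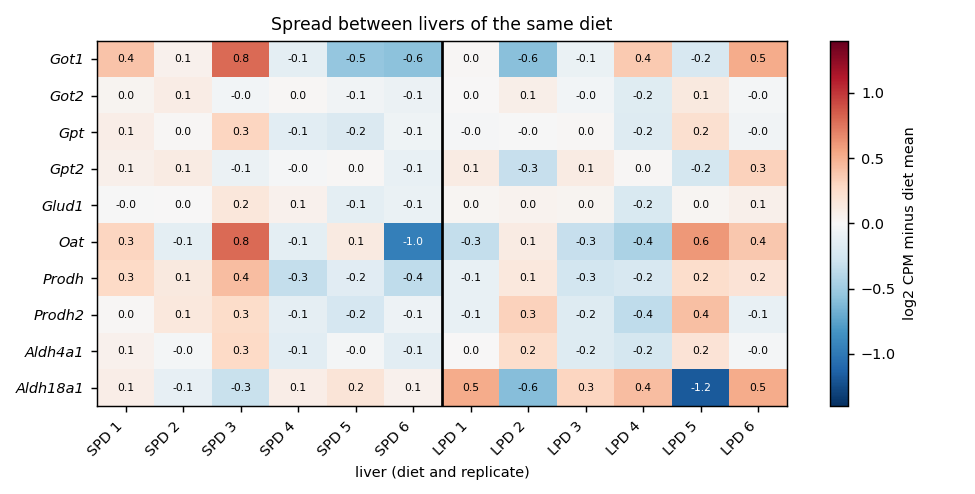
Log2 CPM of each member in each liver minus the mean of its diet, so that 0 is the diet mean, with red above and blue below. SPD replicate 3 is red for 7 members, and Aldh18a1 is bluest in LPD replicate 5.

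For each called member, the 2 genes with the most similar spread within diets were sought among 10869 genes, by Pearson r of log2 CPM after removing the diet mean, over 12 livers. For Got1 these were Slc7a2, a carrier of cationic amino acids (r = 0.93), and the transcription factor gene Tcf21 (r = 0.89). For Gpt they were Ppm1k, the phosphatase that activates branched-chain ketoacid dehydrogenase (r = 0.95), and Zfp395 (r = 0.94), and for Prodh fumarase Fh1 (r = 0.95) and BC024386 (r = 0.94). Each of these 6 r was at least 0.88 without LPD replicates 2 and 5, over 10 livers that had already served to pick the genes. As the highest of 10869, such r are high in part through the picking, and no p is given. For Aldh18a1, C1qtnf6 is given (r = 0.96), and without LPD replicates 2 and 5 its r was 0.28, so the likeness rests on those livers. A spread alike within diets did not mean a like diet difference: Gpt rose while Zfp395 had a log2 fold change of -0.43, and Prodh rose while Fh1 had -0.43.

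Among other aminotransferases, listed together with the related lyases Etnppl and Phykpl, genes rose and fell. Of 15 listed, 13 were tested, of which 6 rose and 2 fell, beside 20.7% of all tested genes called higher and 19.2% lower. The median log2 fold change of the 13 was 0.31. Tat, tyrosine aminotransferase, rose from 917 ± 265 to 2384 ± 770.5 CPM (1.38 ± 0.21 SE, adjusted p = 0.000136, edgeR), and Psat1, phosphoserine aminotransferase, from 6.39 ± 1.13 to 16.9 ± 4.25 CPM (1.41 ± 0.16 SE), with no overlap for either. Agxt2 fell from 218 ± 14.1 to 177 ± 12.3 CPM (-0.31 ± 0.060 SE), and Etnppl, a lyase of the same enzyme fold, fell by 0.59 on the log2 scale. With LPD replicate 1 moved to SPD, Etnppl did not pass (adjusted p = 0.139), which left 1 fallen gene.

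Partners in glutamine, asparagine and proline metabolism moved in both directions: 6 of the 16 genes rose and 5 fell. These counts stand beside 20.7% of all tested genes called higher and 19.2% lower. Glul, glutamine synthetase, rose from 1178 ± 166 to 1768 ± 164 CPM (0.59 ± 0.093 SE), and Asns, asparagine synthetase, from 3.18 ± 0.584 to 10.3 ± 4.19 CPM (1.70 ± 0.25 SE). Asrgl1, which cleaves asparagine, fell by 0.43 and Pepd, which frees proline from dipeptides, by 0.44 on the log2 scale, both without overlap. Of the reductases that follow Aldh18a1, Pycr1 rose (0.80 ± 0.25 SE, adjusted p = 0.0195, edgeR) from 0.455 to 0.796 CPM, and Pycr3 did not pass (0.11 ± 0.082 SE). Both were picked with their values known. Among livers coded SP1 or LP4 there were 3 risen and 3 fallen genes. Without LPD replicates 2 and 5 the list had 3 fallen genes in place of 5, as it had without SPD replicate 2 or without LPD replicate 2, 5 or 6.

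Carriers of the malate-aspartate shuttle and of mitochondrial substrates showed small changes. Of 10 tested, 3 rose and 2 fell, beside 20.7% of all tested genes called higher and 19.2% lower. The other 5 did not pass, among them both malate dehydrogenases. Slc25a13, the liver's aspartate-glutamate carrier, rose from 228 ± 7.94 to 273 ± 18.9 CPM (0.26 ± 0.054 SE), and the pyruvate carrier subunit Mpc1 from 246 to 315 CPM (0.36 ± 0.064 SE). Mpc1 did not pass with LPD replicate 1 moved to SPD (adjusted p = 0.0658). The dicarboxylate carrier Slc25a10 fell (-0.27 ± 0.060 SE). Slc25a11, the oxoglutarate carrier, fell by 0.15 on the log2 scale (adjusted p = 0.0298, edgeR), and that call was lost without any 1 of 8 livers (SPD replicates 1, 2, 3 and 5 and LPD replicates 2, 3, 4 and 6, adjusted p from 0.05008 to 0.07679). It was also lost with LPD replicate 1 moved to SPD (0.06837), among livers coded SP1 or LP4 (0.05295) and without a filter on low counts (0.09543).

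Enzymes of ornithine and polyamine metabolism moved in both directions. Of 14, 4 rose, 4 fell and 6 did not pass, beside 20.7% of all tested genes called higher and 19.2% lower. Amd1 and Srm, both of spermidine synthesis, rose (0.62 ± 0.065 and 0.45 ± 0.068 SE), while Sms, which makes spermine, and Arg1, arginase, fell (-0.69 ± 0.13 and -0.35 ± 0.065 SE). Zonated genes moved as well, beside those same shares of all tested genes. Of 13 pericentral genes 5 rose and 1 fell, and 0 of 14 periportal genes rose and 6 fell by edgeR. DESeq2 gave the same 0 and 6, and 2 periportal genes were higher at an unadjusted p under 0.05. Without SPD replicate 3, 2 were called higher, and 1 was without SPD replicate 6 or without LPD replicate 4 or 6. Cyp2e1 rose from 2194 ± 510.0 to 7915 ± 1673 CPM and Cyp1a2 by 1.41 ± 0.12 SE, whereas periportal Cyp2f2 fell from 722 ± 70.6 to 449 ± 78.0 CPM. Of the pericentral genes Slc1a4 fell by 0.47 on the log2 scale, a call lost without LPD replicates 2 and 5 (adjusted p = 0.105), with LPD replicate 1 moved to SPD (0.123), among livers coded SP1 or LP4 (0.08037) and without SPD replicate 6 (0.0564). The part of zonation in the members' results was not tested.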

How the data were processed

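RNA of 12 livers was sequenced after TruSeq library preparation, per the labels' protocols. TopHat, DESeq2 and build mm10 are named per the submitters' processing notes, without version or role, and for the counting program, its annotation and its use of strand the sources used here give nothing. The authors deposited expected counts (estimated counts, unscaled, partly not whole) for 56980 genes with gene lengths. All columns were used, and each was mapped by its library code.

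Counts were rounded and fitted in R 4.3.3 with edgeR 4.0.16: filterByExpr (minimum count 10, total 15), TMM scaling and the quasi-likelihood F test of LPD against SPD, with Benjamini-Hochberg adjustment over all 13768 tested genes. The SE is the absolute log2 fold change over the square root of F. Levels per kb are CPM divided by the deposited length. Ratios used counts plus 0.5 per kb of length. Each ratio holds a called member, so its test is not separate from the edgeR calls on the same livers. Positions are from GENCODE M21 (GRCm38, the assembly of mm10). The procedure was tested on simulated data.

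Members, lists and tests were chosen with earlier results of these data known. Named are all members, up to 2 called genes per direction with the smallest adjusted p of each context list, and the 2 nearest genes of each called member. Any other gene was picked with its values known, and some results under this rule are not reported here. The livers are separate mice per the labels. Alternatives were 2 other scalings, 2 other filters, DESeq2 1.42.0, limma-voom (limma 3.58.1), a replicate block, each library left out, LPD replicate 1 moved to SPD, SP1 and LP4 codes alone, and omission of LPD replicates 2 and 5. For context lists these were added after seeing the data.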

Additional observations from a re-analysis of the deposited data

Results flagged for a closer look

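The Glud1 level of LPD replicate 4 (879 CPM) stood far below the other 5 LPD livers (1043 to 1073 CPM). Its gap to the nearest liver took 0.858 of the range of the group on the log2 scale, above Dixon's 95% critical value for 6 samples. This was 1 flag among 74 groups examined, and chance alone flags about 1 in 20 groups.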

How the results depend on the processing

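The number of genes called was 5496 and between 4489 and 5631 under every alternative but the SP1 and LP4 libraries alone, which gave 3520 with fewer samples (members called: 4, and 3 to 6 over alternatives). Gpt and Aldh18a1 kept their call under all 22 alternatives, Prodh under 21 and Got1 under 20. Estimates near 0 changed sign: Got2 was -0.024 in SP1 and LP4 alone and -0.01756 without LPD replicates 2 and 5, and Aldh4a1 ran from -0.080 to 0.035 with 1 library left out, positive without SPD replicate 3 (0.035) or LPD replicate 3 (0.009388) or 4 (0.022).

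Ratio differences kept their sign under all 17 alternatives. With 1 library left out they ran from -0.88 to -0.61 (Got1 to Got2), 0.49 to 0.65 (Gpt to Gpt2), 0.23 to 0.34 (Prodh to Prodh2), -1.77 to -1.33 (Aldh18a1 to Prodh) and -1.14 to -0.72 (Aldh18a1 to Aldh4a1). With 1 library left out, Got1 to Got2 did not pass without LPD replicate 1 or 2, and Prodh to Prodh2 did not pass without SPD replicate 2, 4 or 6 or LPD replicate 1, 4 or 6. Also not past the threshold were Got1 to Got2 with LPD replicate 1 moved to SPD (-0.6643) and without LPD replicates 2 and 5 (-0.52), Prodh to Prodh2 with LPD replicate 1 moved to SPD (0.25) and in SP1 and LP4 alone (0.21), and Aldh18a1 to Aldh4a1 in SP1 and LP4 alone (-0.69) and without LPD replicates 2 and 5 (-0.44). The cause was not tested.

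Replicate numbers did not pair the livers: r of same-numbered deviations ran from -0.0539 to 0.0968, and 2 of 6 SPD livers correlated best with their own number. With the replicate block 5230 genes and 4 members were called. Paired sign-flip tests of the ratios as a replicate block left the differences at -0.77, 0.58, 0.29, -1.62 and -1.002 (adjusted p = 0.09375, 0.05208, 0.05208, 0.05208 and 0.07812 by exact permutation, in the order above). For the ratios at 0.05208 every pair differed in the same direction, which gives the smallest p that 6 pairs allow. Not passing there is a limit of the test and says nothing on whether pairing matters.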
